A study of Mus musculus with 2 samples.

Results

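Mitosis genes are the genes whose products carry a cell through division, from entry into mitosis to the separation of the daughter cells. The set described here holds 50 of the 22911 genes that could be named on the array: regulators of the G2 to M transition, kinetochore and spindle proteins, condensin subunits and proteins of cytokinesis. Its members share a function in division, and no measured value enters the rule, although the set was drawn up with earlier results of these data known. All 50 genes were matched through the RefSeq accession of their probes, 83 probes in all, and 78 of these probes were well above background on both arrays. Each of the 50 genes had at least 1 such probe.

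The RNA came from regulatory T cells (Tregs) of mouse kidney, taken on day 28 of cGN, a kidney disease model induced by injected anti-GBM antibody, which binds the basement membrane of the glomerulus. Cells were sorted as positive for CD45, CD3e, CD4 and FoxP3-hCD2, a reporter that puts human CD2 on cells expressing Foxp3. Of the 2 single-colour arrays, 1 belonged to anti-GBM antibody lot I and 1 to lot M, and severity of disease varied with the lot according to the labels. The sample titles number the arrays as replicates 1 and 2 of the same induction, so the lot is the one labelled difference between them. Both arrays hold cells of diseased kidneys, and no untreated group was analysed here. The sources used here do not give strain, age or how many mice each array stands for.

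The assignment of arrays to lots is contradictory. The scanner output puts lot I on array 1 and lot M on array 2, but the columns of the deposited value table carry the opposite assignment. Array numbers are used below, and every difference is array 2 minus array 1. A level is the log2 of a gene's signal over the 75th percentile of its array. The ± beside a difference is the scanner's error for the spots involved and holds no variation between mice. With 1 array per lot there is no replicate check, no test and no p-value, and precision is limited by having 2 arrays.

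In dividing cells these genes are switched on together late in the cycle. Cyclin B with Cdk1 starts mitosis, condensin and topoisomerase II compact and untangle the chromosomes, and kinesin motors and their partners build the spindle. The kinetochore couples chromosomes to the spindle while the checkpoint kinases hold back the anaphase-promoting complex (APC/C) until all chromosomes are attached. Many of the promoters are known to carry a cell cycle genes homology region (CHR), bound by the MuvB core of the DREAM and MYB-MuvB complexes, together with CCAAT boxes, bound by NF-Y. In a bulk sample, fewer dividing cells and less RNA per dividing cell cannot be told apart.

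The promoter windows in the RefSeq table (build GRCm38.p6, 250 bases before to 50 after the start of a gene) covered 41 of the 50 genes with 44 windows. They were searched on both strands. A CHR match was the letters TTTGAA, or the form with a C in the middle that is its own reverse complement, TTCGAA. For the CCAAT box, those 5 letters were searched. An E2F match was any of 3 forms of its core, which were the letters TTCCCGC, the form with a pair of G bases, written TTGGCGC, and the form that reads TTCGCGC. A CHR match was present in 36 of 44 windows (81.8%), against 19.2% of all 32851 windows of the same length. A CCAAT match was present in 33 windows (75%), against 37.4% of all windows, and an E2F match in 9 (20.5%), against 8.07%. Both a CHR and a CCAAT match lay in 30 member windows (68.2%) and in 7.52% of all windows. Many CHR matches lay after the start: in the 250 bases before it, 18 of 44 member windows (40.9%) held one, against 17.1% of all windows, and 15 (34.1%) held both, against 6.02%. A match is a description of letters and not a bound site, and an E2F match can share bases with a CCAAT match, as TTGGCGC read on the other strand does before a T.

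The first 3 promoters are shown because their genes had the lowest differences among genes with a window and a match. The 200 bases before the start are printed 5′ to 3′ on the strand of the gene, with CCAAT, CHR and E2F matches of either strand in capitals. Hmmr lies at chr11:40733438-40733637, minus strand, Ttk at chr9:83834489-83834688, plus strand, and Kif15 at chr9:122950881-122951080, plus strand.
Hmmr: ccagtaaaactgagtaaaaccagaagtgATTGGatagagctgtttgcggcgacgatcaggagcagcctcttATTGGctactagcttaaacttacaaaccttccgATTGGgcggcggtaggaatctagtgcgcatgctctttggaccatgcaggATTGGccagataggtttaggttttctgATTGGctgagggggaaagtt
Ttk: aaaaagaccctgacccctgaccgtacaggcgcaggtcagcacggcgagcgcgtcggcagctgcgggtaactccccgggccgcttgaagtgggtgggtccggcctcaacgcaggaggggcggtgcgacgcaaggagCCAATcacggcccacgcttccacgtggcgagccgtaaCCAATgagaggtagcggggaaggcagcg
Kif15: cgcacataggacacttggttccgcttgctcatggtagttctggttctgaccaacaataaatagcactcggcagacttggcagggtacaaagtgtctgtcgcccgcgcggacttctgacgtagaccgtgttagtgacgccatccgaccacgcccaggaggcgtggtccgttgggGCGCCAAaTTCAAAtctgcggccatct
The Hmmr stretch holds 5 CCAAT matches, all read on the other strand, and the Ttk stretch holds 2. Their CHR matches start 9 and 8 bases after the start and are not printed. The Kif15 stretch holds no CCAAT match but a CHR match that begins 19 bases before the start, next to an E2F match.

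The matches had preferred positions, a pattern looked for after the first counts were seen. A CHR match lay within 50 bases of the start in 33 of 44 member windows (75%) and in 5.31% of all windows. In 19 member windows (43.2%) a CCAAT match began 20 to 50 bases before such a CHR match, against 0.447% of all windows. Over the 28 member windows with a CCAAT match anywhere before it, the median distance was 35 bases, with quartiles of 28 and 48. Ect2 (38 bases) and Prc1 (32 bases) each entered these counts with both of their windows. The 6 further promoters below were picked, after these values were seen, as examples with a CHR match before the start and a CCAAT match 26 to 37 bases before it. Prc1 (32 bases) had such a pair too, whereas in Ncapg, with a CHR match 30 bases before the start, the distance was 146 bases. They are Kif11 (chr19:37376282-37376381, plus strand), Ube2c (chr2:164769829-164769928, plus strand), Kif22 (chr7:127042421-127042520, minus strand), Top2a (chr11:99024190-99024289, minus strand), Cdk1 (chr10:69352913-69353012, minus strand) and Cdc20 (chr4:118437344-118437443, minus strand), each with the 100 bases before the start.
Kif11: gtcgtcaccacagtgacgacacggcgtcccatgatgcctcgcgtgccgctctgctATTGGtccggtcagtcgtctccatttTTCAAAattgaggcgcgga
Ube2c: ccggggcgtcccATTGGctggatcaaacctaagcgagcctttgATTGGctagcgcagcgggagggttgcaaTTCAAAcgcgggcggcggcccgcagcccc
Kif22: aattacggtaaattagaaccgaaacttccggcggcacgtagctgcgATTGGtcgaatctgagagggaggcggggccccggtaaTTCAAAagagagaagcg
Top2a: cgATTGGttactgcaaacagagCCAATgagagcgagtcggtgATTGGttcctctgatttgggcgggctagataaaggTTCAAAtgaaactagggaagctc
Cdk1: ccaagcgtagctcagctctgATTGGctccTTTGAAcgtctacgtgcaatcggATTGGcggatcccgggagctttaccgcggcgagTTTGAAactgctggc
Cdc20: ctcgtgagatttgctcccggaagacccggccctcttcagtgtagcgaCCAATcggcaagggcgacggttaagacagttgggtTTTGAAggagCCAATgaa
In Kif11 the CCAAT and CHR matches were 26 bases apart, in Ube2c 28, in Cdk1 33, in Top2a and Cdc20 35, and in Kif22 37.

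**Figure D1:**
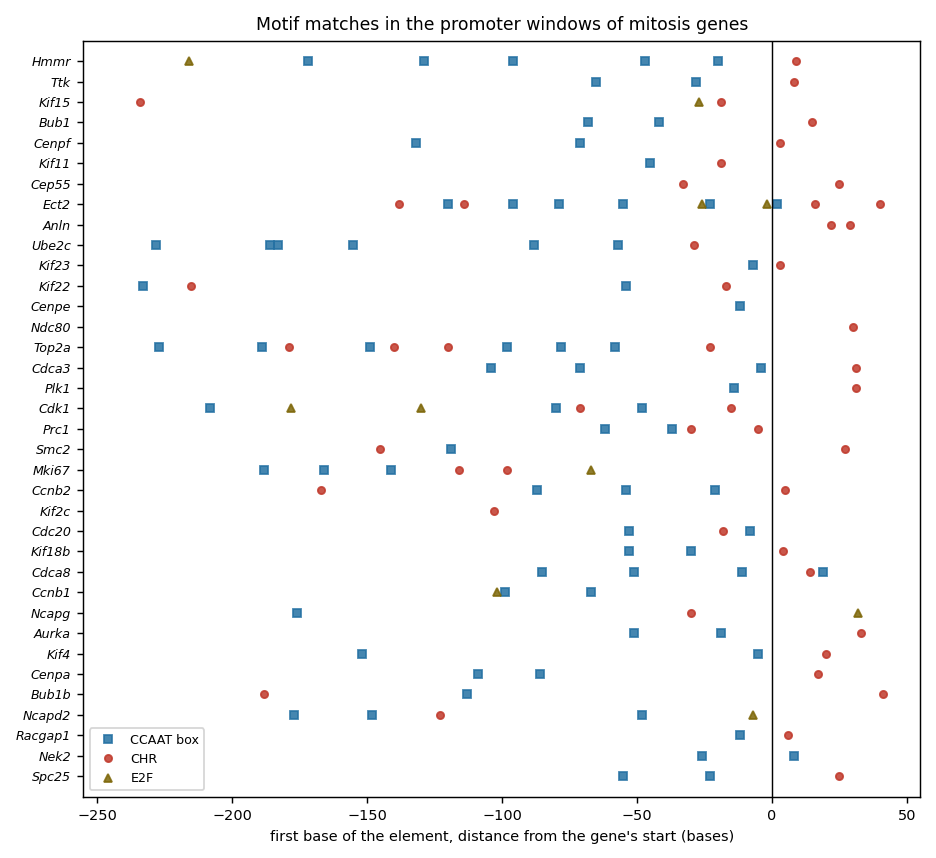
Positions of CHR, CCAAT box and E2F matches in the promoter windows of the 36 mitosis genes that have at least 1 match, in order of their difference between arrays (lowest at the top). The x axis is the distance of the first base of a match from the gene's start in bases, and genes with 2 windows have the matches of both on 1 line. CHR matches cluster around the start and CCAAT matches before it.

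Mitosis genes were lower on array 2 as a group. Of the 50 genes, 48 had a difference below 0, where 46.2% of all 13743 genes measured on both arrays did. The median difference was -0.26, with quartiles of -0.36 and -0.18, a level 1.19-fold higher on array 1. Over all measured genes the median was 0.01. Under scaling by spike-in controls, 62.1% of all genes and 49 of the 50 were below 0.

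The differences were small for each gene. The value was lower by more than the scanner error in 35 of 50 genes, against 11.4% of all measured genes, and no member was higher by more than its error, against 17.1% of all genes. At 1.2-fold, 24 of 50 were lower, against a background of 6.31%, and at 1.5-fold 2 of 50, against 0.815%. None reached 2-fold in either direction, where 1.43% of all measured genes did and 0.0873% were 2-fold lower. Scanner errors were close to 0.20 for a gene with 1 probe, so most single genes lay within 2 errors of 0.

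**Figure D2:**
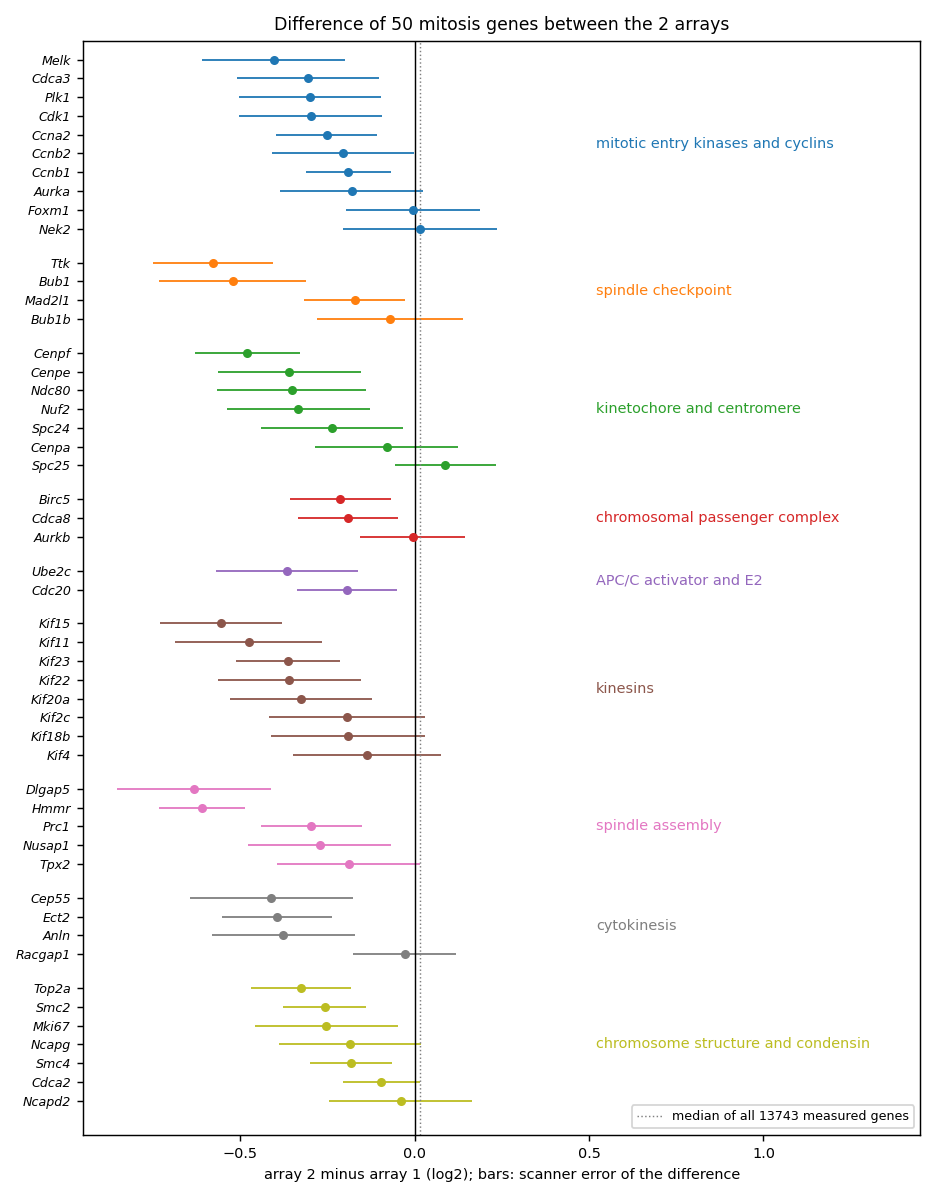
Difference of each of the 50 mitosis genes (x axis, array 2 minus array 1, log2), grouped and coloured by role. Points are the means over a gene's measured probes, bars are the scanner error of the difference, and the dotted line is the median of all 13743 measured genes, 0.01. All but Nek2 and Spc25 lie below 0.

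Genes that build and organise the spindle held the 2 lowest differences of the set. Dlgap5, which encodes the microtubule-binding protein HURP, stood at -1.70 on array 1 and -2.33 on array 2, a difference of -0.63 ± 0.22. Hmmr, a spindle and centrosome protein, stood at -0.70 on array 1 and -1.31 on array 2, a difference of -0.61 ± 0.12. These were the 2 genes past 1.5-fold, but normexp background correction brought Dlgap5 to -0.31 and Hmmr to -0.33. The microtubule bundler Prc1 differed by -0.30 ± 0.15, Nusap1 by -0.27 ± 0.20 and Tpx2, which activates Aurora A on the spindle, by -0.19 ± 0.20, the last within its error. All 5 genes of this role were below 0, against 46.2% of all measured genes, with a median difference of -0.30.

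The mitotic kinesins were below 0 in 8 of 8 cases, against 46.2% of all measured genes, with a median difference of -0.34. Kif15, which helps to keep spindle poles apart, stood at -2.34 on array 1 and -2.89 on array 2, a difference of -0.56 ± 0.17. Kif11, the Eg5 motor that pushes the poles apart, was at -1.17 on array 1 and -1.65 on array 2, a difference of -0.48 ± 0.21. The chromosome-arm motor Kif22 stood at 2.68 on array 1 and 2.32 on array 2, a difference of -0.36 ± 0.20. Kif23, a subunit of centralspindlin, differed by -0.36 ± 0.15 and Kif20a, a motor of the central spindle, by -0.33 ± 0.20. Kif2c, a microtubule depolymerase, and Kif18b each differed by -0.19 and Kif4 by -0.14, all 3 within their errors. A list of interphase kinesin genes, light chains among them, had a median difference of 0.03, which turned to -0.03 when spike-ins set the scale. Of the 24 listed, 18 were measured and 8 were below 0, against 46.2% of all measured genes. Their differences ran from -0.57 to 0.81. By more than the error, 1 was lower and 3 were higher, against 11.4% and 17.1% of all measured genes. In this list Kif5b, the conventional kinesin heavy chain, differed by -0.12 ± 0.12, or by -0.28 with no filter on dim probes.

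Genes of the spindle checkpoint were all below 0, against 46.2% of all measured genes, but unevenly. Ttk, which encodes the checkpoint kinase MPS1, stood at -2.47 on array 1 and -3.05 on array 2, a difference of -0.58 ± 0.17. A stricter filter on dim probes left Ttk out, and with no such filter it differed by -0.41. Bub1, a kinetochore kinase that recruits other checkpoint proteins, stood at -0.90 on array 1 and -1.42 on array 2, a difference of -0.52 ± 0.21. Mad2l1, which encodes the APC/C inhibitor MAD2, differed by -0.17 ± 0.14. Bub1b, which encodes the partner protein BUBR1, differed by -0.07 ± 0.21 and lay within its error. Downstream of the checkpoint, Cdc20, the APC/C activator, differed by -0.19 ± 0.14. Ube2c, the ubiquitin-conjugating enzyme of the APC/C, stood at 2.03 on array 1 and 1.66 on array 2, a difference of -0.37 ± 0.20.

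At the kinetochore, 6 of 7 genes were below 0, against 46.2% of all measured genes, with a median difference of -0.33. Cenpf, a large protein of the outer kinetochore, stood at -0.79 on array 1 and -1.27 on array 2, a difference of -0.48 ± 0.15. The motor Cenpe was at 2.19 on array 1 and 1.83 on array 2, a difference of -0.36 ± 0.20. Of the 4 subunits of the NDC80 complex, which grips microtubule ends, Ndc80 differed by -0.35 ± 0.21, Nuf2 by -0.33 ± 0.20 and Spc24 by -0.24 ± 0.20. The remaining subunit, Spc25, had a positive mean of 0.09 ± 0.15 from 2 probes that opposed each other. The probe for one RefSeq transcript differed by -0.15 and the probe for another by 0.33. Cenpa, the centromeric histone H3 variant, differed by -0.08 ± 0.20.

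Kinases and cyclins of mitotic entry were below 0 in 9 of 10 cases, with a median difference of -0.23. Of all measured genes, 46.2% were below 0. Cdk1 stood at -0.06 on array 1 and -0.36 on array 2, a difference of -0.30 ± 0.21. Its cyclin partners were lower on array 2 as well. Ccna2 had levels of 1.64 on array 1 and 1.38 on array 2, a difference of -0.25 ± 0.14. Ccnb2 had levels of 2.91 and 2.71, a difference of -0.21 ± 0.20. For Ccnb1, with levels of -0.70 and -0.89, the difference was -0.19 ± 0.12, while its brightest probe gave -0.33. The Polo-like kinase Plk1 stood at 2.19 on array 1 and 1.89 on array 2, a difference of -0.30 ± 0.20. Melk, a kinase abundant in dividing cells, was at 0.54 on array 1 and 0.14 on array 2 and had the lowest difference of this role at -0.40 ± 0.20, followed by Cdca3, a factor that promotes mitotic entry, at -0.31 ± 0.20. Aurka, the centrosomal Aurora kinase, differed by -0.18 ± 0.20. Nek2, another centrosomal kinase, stood at -1.98 on array 1 and -1.97 on array 2, a difference of 0.01 ± 0.22. Foxm1, a transcription factor that drives many of these genes, had levels of -1.91 and -1.92, a difference under 0.01 in size, from a probe at -0.13 and a much dimmer one at 0.12.

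The chromosomal passenger complex, which corrects faulty attachments and later directs cytokinesis, had smaller differences. Birc5, which encodes survivin, was at 2.27 on array 1 and 2.05 on array 2, a difference of -0.21 ± 0.14, and Cdca8, which encodes borealin, differed by -0.19 ± 0.14. The 2 probes of the kinase gene Aurkb gave -0.19 and 0.18, with a mean of -0.01 ± 0.15. Incenp, the scaffold of the complex and not among the 50, differed by -0.14 ± 0.14. In cytokinesis, Cep55, needed for abscission, stood at -2.31 on array 1 and -2.72 on array 2, a difference of -0.41 ± 0.23. Ect2, the exchange factor that activates RhoA at the cell equator, was at -1.27 on array 1 and -1.67 on array 2, a difference of -0.40 ± 0.16. The ring protein gene Anln (anillin) differed by -0.38 ± 0.20. Racgap1, the partner of Kif23 in centralspindlin, differed by -0.03 ± 0.15 and lay within its error.

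Chromosome structure genes were below 0 in 7 of 7 cases, against 46.2% of all measured genes, with a median difference of -0.19. Mki67, which encodes the proliferation marker Ki-67, stood at 4.31 on array 1 and 4.06 on array 2, a difference of -0.25 ± 0.20. Top2a, the topoisomerase of dividing cells, stood at 2.26 on array 1 and 1.94 on array 2, and its probes gave -0.32 and -0.33. Of the condensin genes, Smc2 was at 0.50 on array 1 and 0.25 on array 2, a difference of -0.26 ± 0.12. Smc4 differed by -0.18 ± 0.12, Ncapg by -0.19 ± 0.20 and Ncapd2 by -0.04 ± 0.20. Ncaph, the kleisin subunit of condensin I that lies outside the set, differed by -0.37 ± 0.15. Cdca2, a chromatin-bound phosphatase subunit, had 5 measured probes between -0.40 and 0.22 and a mean of -0.10 ± 0.11.

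Several probes were measured for 21 of the 50 genes. All probes were below 0 in 16 of these genes, against 30.6% of all genes with several measured probes, and probes lay on both sides of 0 in 5. Genes whose measured probes all had 1 sign, single-probe genes included, were 45 of the 50 and 11746 of all 13743. In Hmmr the probes gave -0.83, -0.74 and -0.26, and the value closest to 0 belonged to the brightest probe. In Cenpf the dimmer probe gave -0.66 and the brighter one -0.30. Such an order was not general: the dimmest probe had the lower difference in 10 of the 21 genes, and in 54.5% of all genes with several probes. In Aurkb, Foxm1 and Spc25 the brighter probe was below 0 and the dimmer probe above it.

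**Figure D3:**
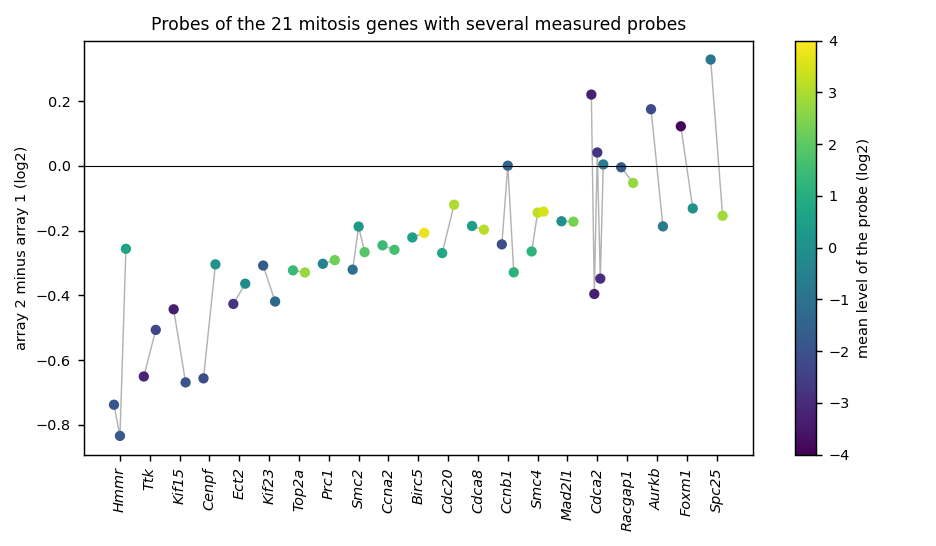
Differences of single probes (y axis, array 2 minus array 1, log2) for the 21 mitosis genes with several measured probes, in order of the gene's mean difference. Each point is a probe, lines join probes of a gene, and colour gives the probe's mean level on the log2 scale. In 16 genes all points lie below 0.

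The shift was present among weakly and strongly hybridising genes. The 28 mitosis genes whose mean level exceeded the 75th percentile had a median difference of -0.24, and 27 of them were below 0, against 46.8% of all genes in that range. The 22 genes below the percentile had a median of -0.36, and 21 were below 0, against 45.4% of all genes there. The medians of all genes in these ranges were 0.01 and 0.03. Across the 50 genes, mean level and difference had a Pearson correlation of 0.24 and a Spearman correlation of 0.20, which describe 2 hybridisations shared by all points. Over all measured genes these correlations were -0.10 and -0.04.

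**Figure D4:**
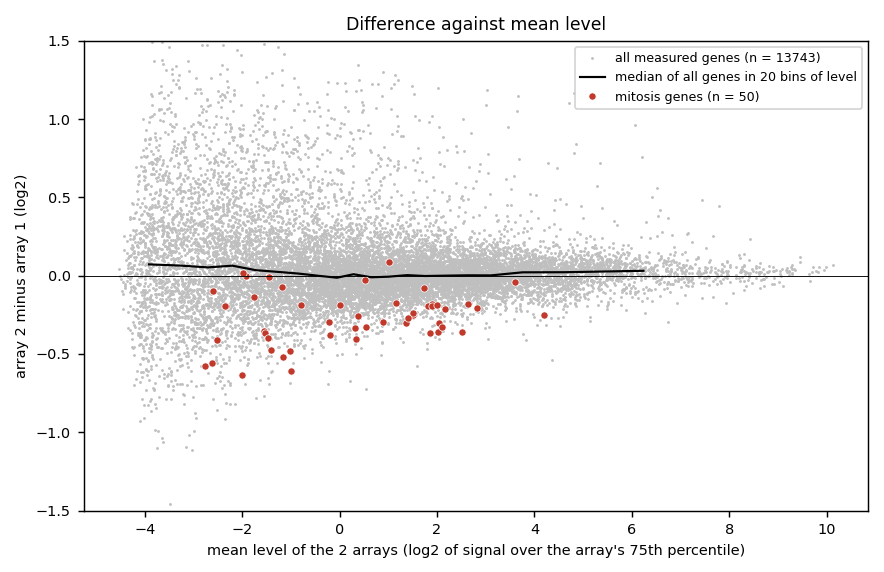
Difference (y axis, log2) against mean level on the arrays (x axis, log2 of signal over the 75th percentile) for all measured genes in grey and the 50 mitosis genes in red. The black line is the median of all genes in 20 bins of level and stays near 0, while 48 of the red points lie below 0. A total of 31 genes lie beyond the axis limits of -1.5 and 1.5.

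Other genes of the division cycle were set beside the 50. A list of 57 further mitosis genes had 54 measured, of which 46 were below 0, against 46.2% of all measured genes. The median difference of the list was -0.17. Low values in it included those of the centromere protector Sgo2a (-0.72 ± 0.35), the centriole assembly gene Stil (-0.70 ± 0.25) and the kinetochore gene Cenpm (-0.52 ± 0.22). With normexp they shrank to -0.19 for Sgo2a, -0.19 for Stil and -0.23 for Cenpm. The citron kinase gene Cit was the one gene of that list higher by more than its error, at 0.33 ± 0.25. Of all measured genes, 17.1% were higher by more than their error. DNA replication genes were below 0 in 35 of 36 cases, against the same 46.2%, with a smaller median of -0.11. Of the 36, 11 were lower by more than their error, against 11.4% of all measured genes. The lowest of these were the origin recognition gene Orc1 (-0.33 ± 0.19), the methylation maintenance gene Uhrf1 (-0.30 ± 0.16), the primase gene Prim1 (-0.29 ± 0.20) and Mcm10 (-0.24 ± 0.20). With normexp Orc1 was at -0.12 and Uhrf1 at -0.08, and the brightest probe of Uhrf1 gave -0.09. The replication clamp gene Pcna differed by -0.09 ± 0.20 and the helicase gene Mcm5 by -0.03 ± 0.20.

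Genes of the APC/C and of cohesin, complexes that also work outside mitosis, had medians closer to 0 than the 50 genes. Of 16 genes for APC/C subunits and cofactors, 8 were below 0, with a median difference of -0.02, and none differed by more than its error. Of all measured genes, 46.2% were below 0, and 11.4% were lower and 17.1% higher by more than their error. Anapc16 was at 0.20 ± 0.20 and Ube2s at -0.13 ± 0.14. The cohesin list holds the ring that joins sister chromatids with its loaders and modifiers. All 12 of its genes were below 0, against 46.2% of all measured genes, with a median of -0.12. They included Esco2, the S phase cohesin acetyltransferase (-0.55 ± 0.29, but -0.12 with normexp), and Pds5b (-0.20 ± 0.15).

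**Figure D5:**
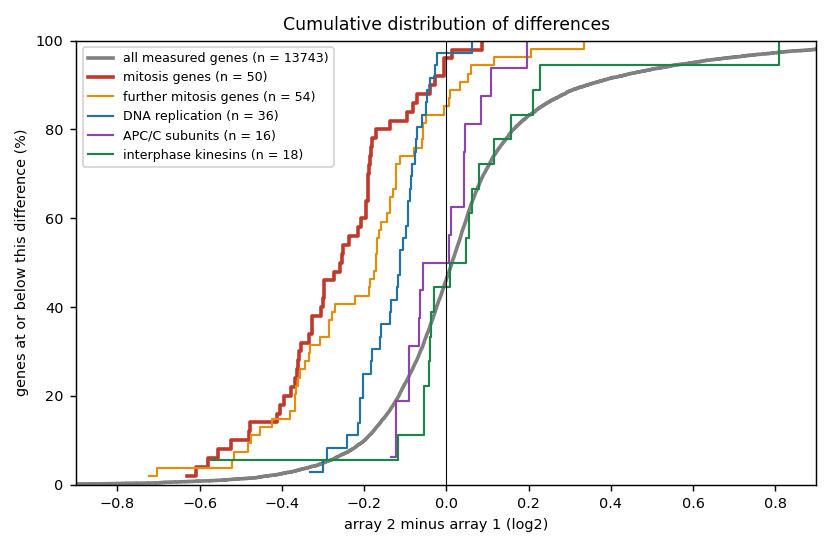
Cumulative distribution of differences (x axis, array 2 minus array 1, log2) as the percentage of genes at or below each value (y axis), for the 50 mitosis genes, 4 comparison lists and all 13743 measured genes. The curve of the mitosis genes lies to the left of that of all genes, while APC/C subunits and interphase kinesins cross 0 near the middle of their lists.

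Markers of other cells were checked because the sort was for T cells. The 9 T cell genes on the array, such as Cd3e and Cd4, had a summed level of 955 times the 75th percentile on array 1 and 958 on array 2, with differences between -0.10 and 0.11. The 4 Treg genes had a summed level of 105 on both, and Foxp3 differed by -0.17. In contrast, all 8 proximal tubule markers were higher on array 2, with a summed level of 78.7 on array 1 and 163 on array 2, and so were all 6 markers of the distal nephron (90.5 and 122). Of all 13743 measured genes, 7390 were higher on array 2. Macrophage and monocyte markers were higher in 7 of 8 cases, with sums of 21.3 and 24.6, while Ccr2 differed by -0.41 ± 0.20. The part of these cells in the lower mitosis genes was not tested.

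Markers of other leukocytes differed in both directions. Sums of B and plasma cell markers were 7.92 on array 1 and 6.84 on array 2. Below 0 were 3 of 5 genes, against 46.2% of all measured genes. The sums for natural killer and CD8 T cell markers were 15.5 and 17.9, with Ncr1 not well above background, and for dendritic cells 1.94 and 2.04, with Xcr1 not well above background. For neutrophils they were 8.05 and 10.3, with Mpo not well above background. Of erythroid markers, Alas2 was not well above background, and Hba-a1 was higher on array 2, by 0.52. Endothelial markers had a median difference of -0.10. Of the fibroblast and mesangial markers Col3a1, Pdgfra and Pdgfrb were not well above background on both arrays, which left Col1a1, at -3.61 on array 1 and -3.27 on array 2. Their part in the result was not tested.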

How the data were processed

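Kidney Treg RNA labelled with Cy3 was hybridised to 2 one-colour Agilent arrays, 1 per anti-GBM lot. Spots were read with Agilent Feature Extraction 10.7.1.1, per the submitters' processing notes. The deposited processed signal intensity had its background subtracted and a spatial trend removed, per the file headers. A deposited table of values holds a linear ratio, which for each array matched the processed signal over a constant in the column labelled with the opposite lot (SD of the log2 quotient 0.000162 and 0.000158) and not in its own (0.156 and 0.181).

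Levels are log2 intensity minus the 75th percentile of non-control probes (Python 3.11.15, pandas 2.3.3). Control spots (3671 of 62976) and outlier spots (75 and 56) were left out. RefSeq accessions gave 1 symbol to 32994 of 56605 probes. A gene's difference averages those of its probes that were well above background on each array, with their errors combined as independent. The code was tested on simulated data. Normexp came from limma 3.58.1. The 50 genes and all lists were chosen with earlier results of these data known. Every member was named, with up to 4 of the largest differences per other list and 8 fixed genes (Ccnd2, Ccne1, Pcna, Mcm5, Cdkn1b, Mybl2, Incenp and Kif5b), while the first 3 promoters followed a rule. Ncaph, Cit, single marker genes and the 6 further promoters were chosen after their values were seen.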

Additional observations from a re-analysis of the deposited data

How the results depend on the processing

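The median difference of the 50 genes lay between -0.31 and -0.20 under normexp, 3 other scalings, quantile normalisation, lowess centring, both filters on dim probes, outlier spots kept, the brightest probe and probes of 1 sign. Between 43 (normexp) and 49 members were below 0 under these settings, apart from probes of 1 sign (44 of 45 measured) and the stricter filter (45 of 48 measured). Of all genes, the share below 0 ran from 38.1% (no filter on dim probes) to 62.1% (spike-ins), with 43.0% under normexp. The stricter filter left out Ttk and Cep55. No spot of the 50 genes was flagged as an outlier, so keeping outlier spots could not change their values. The 3 other scalings move every gene by the same amount. All 35 members whose difference exceeded the error were below 0. Of all measured genes, 11.4% were lower and 17.1% higher by more than the error. Taken by its column labels, the value table turned the median to 0.25, since these assign the arrays to lots the other way. It put 3 of the 50 genes below 0, against 54.2% of all measured genes. No gene reached 2-fold under any of these settings, while other limits gave 2 genes (1.5-fold) and 24 (1.2-fold). In the 250 bases before the start, 15 windows held both CHR and CCAAT matches. In the whole windows, 19 met the spacing rule, which was chosen after seeing the data. With no filter on dim probes the interphase kinesin gene Kif5a turned from 0.23 to -0.17. Normexp, whose offset of 50 compresses dim signals by construction, brought Dlgap5 to -0.31, Hmmr to -0.33, Ttk to -0.19, Kif15 to -0.24, Cenpf to -0.29, Kif23 to -0.18, Ect2 to -0.17 and Cep55 to -0.14. With no filter on dim probes Kif15 was at -0.24 and Cep55 at -0.16, and with the brightest probe Hmmr was at -0.26. No paired analysis was possible because each lot has 1 array.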

Other observations

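Regulators of G1 and S phase were mixed, unlike the DNA replication genes, of which 35 of 36 were below 0. Of 16 measured regulators, 11 were below 0, against 46.2% of all measured genes, with a median difference of -0.08. E2f8, a repressor of E2F targets, stood at 0.20 on array 1 and -0.31 on array 2, a difference of -0.51 ± 0.20. The retinoblastoma gene Rb1 differed by -0.36 ± 0.14, Cdk6 by -0.29 ± 0.21 and the G1 cyclin gene Ccne1 by -0.27 ± 0.20. In the other direction, Myc differed by 0.29 ± 0.15. Ccnd2, a D-type cyclin of T cells, differed by -0.10 ± 0.12.

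Subunits of the DREAM and MuvB complexes, which act at the CHR and E2F elements of many mitosis promoters, had a median difference of -0.03 over 12 genes. The activator gene Mybl2 differed by -0.04 ± 0.20, whereas the pocket protein gene Rbl1 differed by -0.27 ± 0.12 and Tfdp1 by -0.24 ± 0.14. E2f4 stood at -2.43 on array 1 and -4.19 on array 2. The lowest detected levels were -4.62 on array 1 and -4.58 on array 2, so only its array 2 level was near the floor. That difference of -1.76 ± 0.34 from 1 probe became -0.51 with normexp. Inhibitors and quiescence genes had a median of -0.03 over 15 genes, with Cdkn1b (p27) at 0.01 ± 0.20, Cdkn2c at -0.18 ± 0.20 and Cdkn2a at -0.33 ± 0.21. The 2 most different interphase kinesins were Kif21a at 0.81 ± 0.22 and Kif7 at -0.57 ± 0.34. With normexp Kif21a was at 0.49 and Kif7 at -0.10.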
